A study of Homo sapiens with 6 samples.

Results

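The Eph receptors and their ephrin ligands were followed under a block of translation in GM00156, a human line from the Coriell cell repository. The genes were chosen by name as EPHB2, EPHB4, EPHA2, EFNA1, EFNB1 and EFNB2, and their probes as those that carry 1 of these symbols alone in the platform annotation. Probes of this kind were found for 5 of the 6 genes, 7 probes in all among the 14080 of the array. EPHB2, which heads the list of names, has no such probe in the annotation used, so EPHB2 itself was not analysed here. EPHB4 and EFNB1 have 2 probes each, and EPHA2, EFNA1 and EFNB2 have 1 each. Another 8 Eph and ephrin genes with a probe were measured beside them.

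Eph receptors are receptor tyrosine kinases that bind ephrins on the surface of a neighbouring cell. Class A receptors mainly bind ephrin-A ligands, which a lipid anchor holds in the membrane, and class B receptors mainly bind ephrin-B ligands, which span it. Contact signals into both cells, forward through the receptor and in reverse through the ephrin, and it steers cell repulsion, boundaries between tissues and the growth of vessels and axons. EPHB2 is known from a screen that used the same kind of treatment on prostate cancer cells, to find transcripts with a premature stop codon that cells degrade while translation runs.

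The treated cells received the translation inhibitor emetine at 100 µg/ml for 10 h, against cells incubated without it. Actinomycin D, an inhibitor of RNA synthesis, was then added to both at 5 µg/ml, and cells were harvested at 0, 10 and 30 min, 1 h and 8 h. On each of 5 two-colour arrays, emetine-treated RNA carried Cy3 and untreated RNA of that harvest carried Cy5. On the sixth array, treated RNA harvested at 0 min was set against itself (self-self), and its labels name no actinomycin D. The labels of the 0 min harvest conflict: by its description treated RNA was on both sides, and by its channels 1 side was untreated. They state neither a cell type nor separate cultures for the harvests, so the p-values measure only the spread between these arrays.

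Each value is a deposited log2 ratio of the 2 channels, and the labels do not say which channel is the numerator. Values are therefore called positive or negative, with no direction of change. Each harvest has 1 array, and their number limits the precision. An array's spread (robust SD of its log ratios) was 0.44, 0.91, 0.78, 0.53 and 0.87 at the 5 harvests in time order, and 0.12 on the self-self array. Of 13091 probes measured on all 6 arrays, the central 99% on the self-self array lay between -0.32 and 0.47, which is used below as the range of labelling noise. A ratio of bulk RNA cannot tell fewer cells of a type from less RNA per cell. Ratios also give no level, so the cell type could not be checked from its markers. Of fibroblast markers 9 of 10 were measured, of B lymphocyte markers 5 of 8 and of epithelial markers 6 of 6, and their median means over the harvests were -0.99, 0.16 and 0.07. In these lists 1, 1 and 2 genes passed as positive and 6, 0 and 1 as negative in the limma fit described below, where 37.0% of all genes passed as positive and 25.3% as negative. The part of any change in cell makeup in the ratios below was not tested.

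RefSeq promoters (GRCh38.p14, 250 bases before to 50 after the annotated start, 5′ to 3′ along the gene) are shown for the 3 genes with large positive ratios, EPHA2, EFNA1 and EFNB2, and for EPHB4, which was negative. Capitals mark matches, on either strand, to the full cAMP response element TGACGTCA, the AP-1 site TGANTCA, the EGR site GCGNGGGCG, the TATA box TATAAA, the CCAAT box CCAAT and an NF-kB site. The short element TGACG was searched too and overlaps the full one.
EPHA2, chr1:16156020-16156319, minus strand: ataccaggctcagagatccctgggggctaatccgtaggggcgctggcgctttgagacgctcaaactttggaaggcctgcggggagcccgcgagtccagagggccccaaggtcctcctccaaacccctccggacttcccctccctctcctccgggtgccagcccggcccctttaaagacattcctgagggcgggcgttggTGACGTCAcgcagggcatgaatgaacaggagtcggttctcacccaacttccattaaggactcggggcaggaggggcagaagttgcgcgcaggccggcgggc
EFNA1, chr1:155127626-155127925, plus strand: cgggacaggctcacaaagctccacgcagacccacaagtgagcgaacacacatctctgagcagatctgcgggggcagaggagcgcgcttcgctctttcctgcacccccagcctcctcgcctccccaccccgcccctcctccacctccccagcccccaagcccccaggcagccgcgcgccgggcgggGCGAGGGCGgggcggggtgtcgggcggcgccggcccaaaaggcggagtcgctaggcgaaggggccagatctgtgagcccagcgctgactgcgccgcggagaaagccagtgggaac
EFNB2, chr13:106535613-106535912, minus strand: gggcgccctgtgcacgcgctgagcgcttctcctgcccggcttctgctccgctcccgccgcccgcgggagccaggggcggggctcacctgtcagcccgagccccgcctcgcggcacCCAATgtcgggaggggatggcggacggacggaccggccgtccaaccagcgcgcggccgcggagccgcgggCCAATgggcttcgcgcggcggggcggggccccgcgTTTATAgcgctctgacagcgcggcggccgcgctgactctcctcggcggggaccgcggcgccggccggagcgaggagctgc
EPHB4, chr7:100827474-100827773, minus strand: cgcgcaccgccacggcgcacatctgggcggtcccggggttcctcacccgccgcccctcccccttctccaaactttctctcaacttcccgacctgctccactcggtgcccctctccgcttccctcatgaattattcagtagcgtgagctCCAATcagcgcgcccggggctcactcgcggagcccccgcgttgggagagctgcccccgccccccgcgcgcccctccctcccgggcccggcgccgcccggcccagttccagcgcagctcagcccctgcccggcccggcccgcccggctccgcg

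No capitalised motif is common to all 4 windows, while the CCAAT box is found in both EFNB2 and EPHB4. EPHA2 carries the full cAMP response element, which starts at position -51 from the start site and is found in 1.85% of 35116 promoter windows of this length. EFNA1 carries an EGR site at -65, a motif in 9.43% of windows. EFNB2 has a TATA box on the other strand at -30, in 11.5% of windows, and 2 CCAAT boxes, at -135 and -65. EPHB4 has 1 CCAAT box, at -102, a motif of 34.6% of windows. The GC box GGGCGG, left in lower case, occurs 1, 5, 3 and 5 times in EPHA2, EFNA1, EFNB2 and EPHB4, and at least 1 time in 45.0% of windows. In the same order the GC content of these windows was 64.3, 71.7, 78.7 and 74.3%, against a median of 58.7% over all windows. No match to AP-1 (7.71% of windows) or NF-kB (11.3%) was found in these 4 windows, and the short element (24.6%) was found only within the full one. These are matches of letters and not binding sites. EFNB1, not shown, has 2 CCAAT boxes on the other strand and 1 GC box.

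Set against the self-self range, EPHA2, EFNA1 and EFNB2 were beyond it on the positive side at every harvest. EPHB4 was beyond it on the negative side at all 5 harvests on 1 probe and at 3 on the other, and EFNB1 stayed within 0.48 of 0 until 8 h. These results depend on the arrays' spread, 0.12 on the self-self array and 0.44 to 0.91 at the harvests. With arrays at equal spread, 140 to 343 probes of the table lay outside per harvest, in place of 5155 to 8810. In units of each array's spread from its median, EPHA2 was at 1.67 to 3.7 and EFNA1 at 1.93 to 4.02. EFNB2 was at 1.52 to 3.18 and EPHB4 probe 8148 at -2.02 to -1.06. EFNA1 encodes ephrin-A1, a ligand of EPHA2 that was first found as a gene induced by tumour necrosis factor. In order of time its log2 ratio was 1.82, 2.44, 2.57, 1.07 and 2.37, against -0.03 on the self-self array. In linear terms the channels differed by 3.54, 5.41, 5.95, 2.10 and 5.15 times. The 1 h value was the lowest of the 5 and still beyond the self-self range.

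EPHA2, a class A receptor active in epithelia and in many tumours, was at 1.65, 2.21, 1.52, 0.94 and 3.36 at these harvests, against -0.18 on the self-self array. Its 8 h value was a linear ratio of 10.2, the largest of any Eph or ephrin value at these harvests among probes measured at all 5. The harvests did not overlap with the self-self range, and the 1 h array was again lowest.

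EFNB2 encodes ephrin-B2, the ligand that marks arteries and binds EPHB4. Its ratio was 1.43, 1.87, 1.81, 0.86 and 2.91, against 0.04 on the self-self array. It shared with EPHA2 the lowest value at 1 h and the highest at 8 h, whereas EFNA1 was highest at 30 min.

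EFNB1 encodes ephrin-B1, which is needed for the borders between cell groups in the developing skull. Probe 4505 was at 0.28, 0.48, 0.39, -0.01 and 1.00, against -0.04 on the self-self array, and left the self-self range only at 10 min and 8 h. Probe 4723 was at -0.17, 0.40, 0.37 and 1.19 (0 min, 10 min, 1 h, 8 h), against 0.03 on the self-self array, and left the range only at 8 h. Its 30 min entry is the value that this array repeats at 534 probes and was treated as not measured. The probes of EFNB1 were thus both highest at 8 h but differed in sign at 0 min and 1 h.

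EPHB4, the receptor of veins for ephrin-B2, was negative at all 5 harvests on both probes. Probe 8148 was at -0.84, -1.45, -1.28, -0.86 and -0.77, against -0.13 on the self-self array, and lay beyond the self-self range every time. Probe 7585 was at -0.28, -0.52, -0.38, -0.21 and -0.44, against -0.04, and lay beyond the range at 3 of 5 harvests. Both probes are annotated to the same transcript. They share the sign and the lowest point at 10 min, and differ in size at each harvest.

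**Figure D1:**
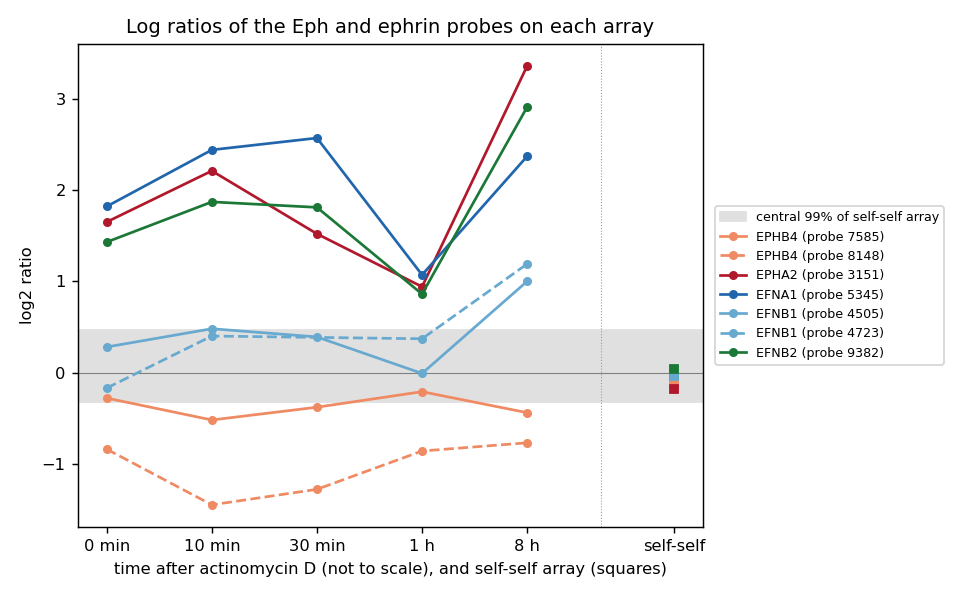
Log2 ratio (vertical axis) of the 7 probes on each array, with the 5 harvests on the left (circles, joined per probe, dashed for the other probe of a gene) and the self-self array on the right (squares). The grey band is the central 99% of the self-self array, from -0.32 to 0.47; EPHA2, EFNA1 and EFNB2 lie above it at every harvest, EPHB4 probe 8148 lies below it at every harvest, and the line of EFNB1 probe 4723 bridges its missing 30 min value.

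Beyond the range on the positive side at all 5 harvests were EPHA2, EFNA1 and EFNB2, 3 of the 6 probes of the named genes measured on all 6 arrays, where the share over the whole table was 10.5%. On the negative side it was 1 of the 6, EPHB4 probe 8148, where the share was 13.1%. These counts use ratios not scaled to the spread of each array. No test goes with them, as each harvest has 1 array.

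Ranks within an array do not depend on its zero or its spread. EFNA1 stood at percentiles 98.1, 98.0, 98.4, 96.9 and 96.0 at the 5 harvests, and at 38.8 on the self-self array. EPHA2 stood at 97.6, 97.4, 94.3, 95.3 and 98.6, and at 5.42 on the self-self array. EFNB2 stood at 96.8, 96.3, 96.0, 94.1 and 97.8, and at 59.9 on the self-self array. All 3 had their lowest log ratio at 1 h, on an array whose spread was 0.53, but by rank EFNA1 was lowest at 8 h, EPHA2 at 30 min and EFNB2 at 1 h. Ranks this near the top have little room to move.

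At the other end, EPHB4 probe 8148 ranked at 2.55, 5.30, 4.47, 6.94 and 15.8, and at 12.2 on the self-self array, where it was already in the lower part. EPHB4 probe 7585 kept between 23.3 and 32.0 at the harvests and stood at 36.2 on the self-self array. EFNB1 probe 4505 ranged from 45.0 at 1 h to 82.2 at 8 h, with 35.1 on the self-self array. By rank as by ratio, this EFNB1 probe moved most between 1 h and 8 h.

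**Figure D2:**
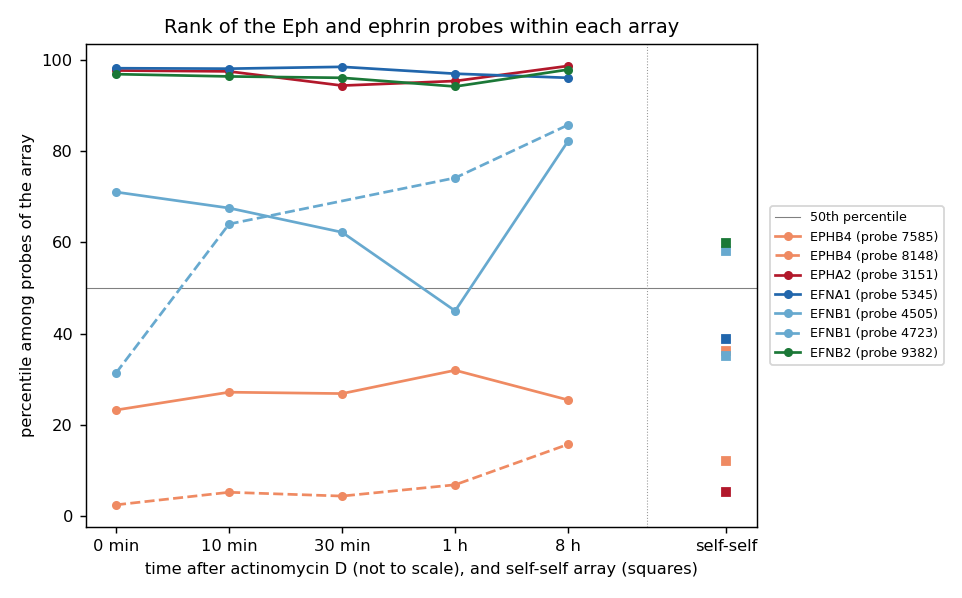
Percentile of each probe's log ratio among all measured probes of the array (vertical axis), with the harvests on the left (circles) and the self-self array on the right (squares). EFNA1, EPHA2 and EFNB2 stay between 94.1 and 98.6 at all 5 harvests, and both EPHB4 probes stay at or below 32.0.

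A probe's mean over the 5 harvests shows whether it lay off 0 on average. A probe can pass while it lies near 0 at some harvests. With limma, fitted to 13151 probes with a mean and a time slope, 35.0% of all probes passed as positive and 26.3% as negative at an adjusted p of 0.05 (Benjamini-Hochberg over all probes, two-sided). Of the 6 probes of EPHA2, EPHB4, EFNA1, EFNB1 and EFNB2 measured at all 5 harvests, 4 passed as positive and 2 as negative, so passing by itself did not set them apart from the table. EFNA1 had a mean of 2.05 (SE 0.22, 5 arrays, limma adjusted p = 0.000499), which ranked at percentile 98.1 of all means. EPHA2 had 1.93 (SE 0.26, limma adjusted p = 0.000642, percentile 97.8) and EFNB2 1.77 (SE 0.21, limma adjusted p = 0.000548, percentile 97.2). Neighbours in this order differed by less than the SE of either mean, and the order changed between harvests. All 3 were positive on 5 of 5 arrays.

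EFNB1 probe 4505 had a mean of 0.43 (SE 0.14, limma adjusted p = 0.0292), and was positive on 4 of 5 arrays. It lay below EFNB2 at each harvest. Its call did not hold when the 0, 10 or 30 min or the 8 h array was left out, nor with each array centred on its median. There the adjusted p was 0.0514, 0.0662, 0.0745, 0.134 and 0.067, within a range of 0.00751 to 0.46 over all alternatives. EPHB4 probe 8148 had -1.04 (SE 0.14, limma adjusted p = 0.000637, percentile 5.29) and probe 7585 had -0.37 (SE 0.11, limma adjusted p = 0.0227, percentile 25.4). Both were negative on 5 of 5 arrays. The call of probe 7585 was lost without the 10 min, 30 min or 8 h array, with limma adjusted p = 0.0563, 0.0805 and 0.0691. Its lowest value was limma adjusted p = 0.00538, with arrays at equal spread. Averaged with probe 8148, the gene had limma adjusted p = 0.00162. Compared with the self-self array within 1 fit, none of these 6 probes passed, and of all probes 0 passed as positive and 2 as negative. That fit lends the single self-self array the harvests' spread. The means of EFNA1, EPHA2 and EFNB2 were then 2.08, 2.11 and 1.74, near those above, with standard errors of 0.54, 0.63 and 0.53.

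The slope asks whether a ratio moved with time after actinomycin D, per unit of log2(1 + min / 10). No Eph or ephrin probe passed, and 0.0% of the table did with limma (0 of 13151 probes, with 1870 at an unadjusted p under 0.05). EPHA2 had a slope of 0.25 (SE 0.13, limma adjusted p = 0.469) and EFNB2 of 0.22 (SE 0.11, limma adjusted p = 0.462). Without the 1 h array 574 probes of all passed. EPHA2 and EFNB2 were not among them, at 0.29 (limma adjusted p = 0.0787) and 0.25 (limma adjusted p = 0.0634). For EFNA1 the slope was 0.02 (SE 0.12), and for EPHB4 it was -0.01 (SE 0.06) and 0.06 (SE 0.07).

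The difference of 8 h minus 0 min, given without a test, was 1.71 for EPHA2 and 1.48 for EFNB2, percentiles 96.7 and 95.2 of 13484 probes whose median was 0.04. EFNB1 had 0.72 and 1.36 on its probes, EFNA1 0.54, and EPHB4 -0.16 and 0.07. The log2 ratio of EPHB4 at 8 h was thus close to that at 0 min, while those of EPHA2, EFNB2 and EFNB1 were higher. The arrays differed in spread, 0.44 at 0 min and 0.87 at 8 h. In units of this spread from the array median, EPHA2 was at 3.62 and 3.7 at these harvests, and EFNB2 at 3.12 and 3.18. On that scale EFNA1 was at 4.02 and 2.56. EPHB4 was at -2.02 and -1.06 (probe 8148) and -0.75 and -0.68 (probe 7585). EFNB1 was at 0.52 and 0.99 (probe 4505) and -0.5 and 1.21 (probe 4723).

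Ligand and receptor of a pair can be set side by side on the same array. EFNB2 minus EPHB4 was 1.70, 2.38, 2.19, 1.07 and 3.35 at the 5 harvests with probe 7585, against 0.07 on the self-self array. With probe 8148 it was 2.27, 3.31, 3.09, 1.72 and 3.68, against 0.17. This pair lay on opposite sides of 0 at all 5 harvests. EFNA1 minus EPHA2 was 0.18, 0.23, 1.05, 0.14 and -0.99, against 0.15 on the self-self array. That pair lay on the same side throughout, and the order of ligand and receptor turned at 8 h. A difference in log ratio between 2 genes says that their ratios were unequal, not which transcript was more abundant.

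**Figure D3:**
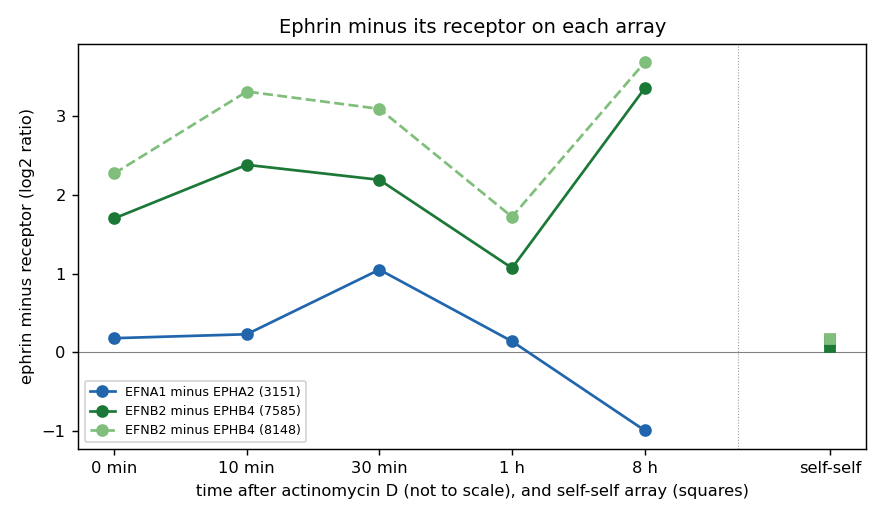
Log2 ratio of the ephrin minus that of its receptor (vertical axis) on each array, with the harvests on the left (circles) and the self-self array on the right (squares). EFNB2 minus EPHB4 lies between 1.07 and 3.68 at the harvests on both EPHB4 probes, and EFNA1 minus EPHA2 lies between -0.99 and 1.05.

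The other Eph receptors fitted over the 5 harvests had means nearer 0 than EPHA2. EPHA4, a receptor that binds ephrins of both classes, was at 0.42, 0.81, 0.93, 0.95 and 0.52, against 0.17 on the self-self array, with a mean of 0.73 (SE 0.13, limma adjusted p = 0.00218). EPHB3, which with EPHB2 orders cells along the intestinal crypt in mice, was at 0.30, 0.78, 0.22, 0.41 and 0.98, against 0.09. Its mean was 0.54 (SE 0.13, limma adjusted p = 0.00935). EPHA1 had a mean of 0.49 (SE 0.12, limma adjusted p = 0.0096) and was positive on 5 of 5 arrays. EPHA3 was at 0.20, 0.65, 0.45, -0.32 and -0.09, against 0.11, and its mean of 0.18 did not pass (SE 0.15, limma adjusted p = 0.321). EPHA4, EPHB3 and EPHA1 were all positive at each harvest, and their means lay far below that of EPHA2.

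Among the other ephrins, EFNA4 was negative and moved toward 0 with time, at -0.86, -0.67, -0.52, -0.16 and -0.01, against -0.03 on the self-self array. Its mean was -0.44 (SE 0.11, limma adjusted p = 0.0101), and its slope of 0.16 did not pass (SE 0.06, limma adjusted p = 0.271). EFNB3 was at 0.16, 0.36, 0.67, 0.06 and -0.07, against 0.17, and its mean of 0.24 did not pass (SE 0.13, limma adjusted p = 0.151). The ephrins thus ran from EFNA1 on the positive to EFNA4 on the negative side, also within class A. EPHB6, a receptor without kinase activity, was measured at 4 harvests, at 0.20, 1.06, 0.70 and 0.08 (0, 10 and 30 min and 8 h), against 0.51 on the self-self array. EPHA5 was measured at 0.46 at 30 min and 2.99 at 1 h, the highest value of the 1 h array, against -0.30 on the self-self array, and was not fitted.

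**Figure D4:**
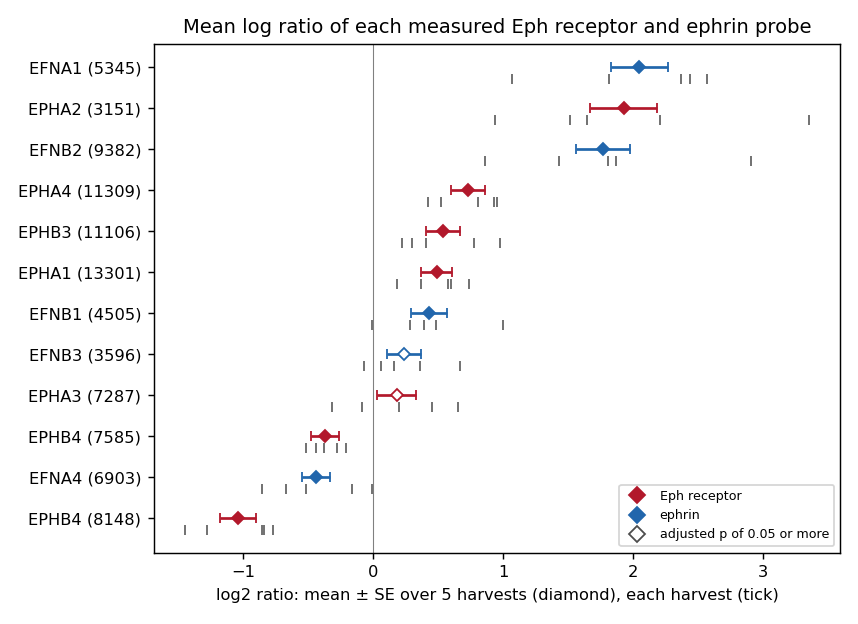
Mean log2 ratio over the 5 harvests with its SE (diamonds and bars, receptors in red, ephrins in blue, open where the adjusted p was 0.05 or more) and the single harvests (grey ticks) for the 12 Eph and ephrin probes measured at all 5. EFNA1, EPHA2 and EFNB2 lie between 1.77 and 2.05, and the next probe, of EPHA4, lies at 0.73.

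With probes averaged per gene, 6 Eph receptors and 5 ephrins were fitted among 8748 genes. Of the receptors 4 passed as positive and 1 as negative, with a median of 0.51, and of the ephrins 3 and 1, with a median of 0.43. Over all genes 37.0% passed as positive and 25.3% as negative, and the median was 0.14.

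The proteins that carry the Eph signal were followed by lists. Of 27 measured adaptors, kinases and phosphatases, 14 passed as positive and 4 as negative, with a median of 0.32. The shares over all genes were 37.0% positive and 25.3% negative. ABL2, a kinase of the Abl family that acts on the cytoskeleton, was at 2.77 (SE 0.26, limma adjusted p = 0.000462). PIK3R1, the regulatory subunit of phosphoinositide 3-kinase, was at 2.31 (SE 0.27). BCAR3 and BCAR1, which bind each other at focal adhesions, were at 1.98 (SE 0.28) and 1.86 (SE 0.25). BCAR3 was at 0.92, 1.11, 1.80, 0.99 and 5.07 over the harvests, so its 8 h value stood far above the rest.

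Partners of ephrin-B in reverse signalling had 10 positive and 0 negative genes of 16, with a median of 0.41. Over all genes 37.0% were positive and 25.3% negative by the same fit. RGS3, which links ephrin-B to G proteins in mice, was at 1.77 (SE 0.19, limma adjusted p = 0.000462), from 0.17 at 0 min to 4.28 at 8 h. SDCBP (syntenin), whose PDZ domains bind ephrin-B, was at 1.29 (SE 0.13), CNKSR1, a scaffold protein, at 0.84 (SE 0.15) and the tight junction protein CLDN1 at 0.65 (SE 0.16). The other 6 genes of the list did not pass.

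Proteases and other partners at the contact had 3 positive and 8 negative genes of 16 and a median of -0.34. Among all genes 37.0% were positive and 25.3% negative. ADAM12, a metalloprotease, was at -2.14 (SE 0.22, limma adjusted p = 0.000462) and MMP14, a membrane-bound one, at -1.22 (SE 0.16). The chemokine CXCL12 was at -1.19 (SE 0.18, 2 probes) and RELN, a secreted guidance protein, at 1.15 (SE 0.15). The 36 other receptor tyrosine kinases had 10 positive and 7 negative genes, both below the shares over all genes, and a median of 0.06. EGFR had the highest mean there, 0.83 (SE 0.14, limma adjusted p = 0.0018), and PTK7 the lowest, -1.07 (SE 0.18), with PDGFRB at -0.99 (SE 0.16) and INSRR at -0.78 (SE 0.16). The means of EPHA2 and of the ephrins EFNA1 and EFNB2 lay above that of each of these 36 receptors.

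**Figure D5:**
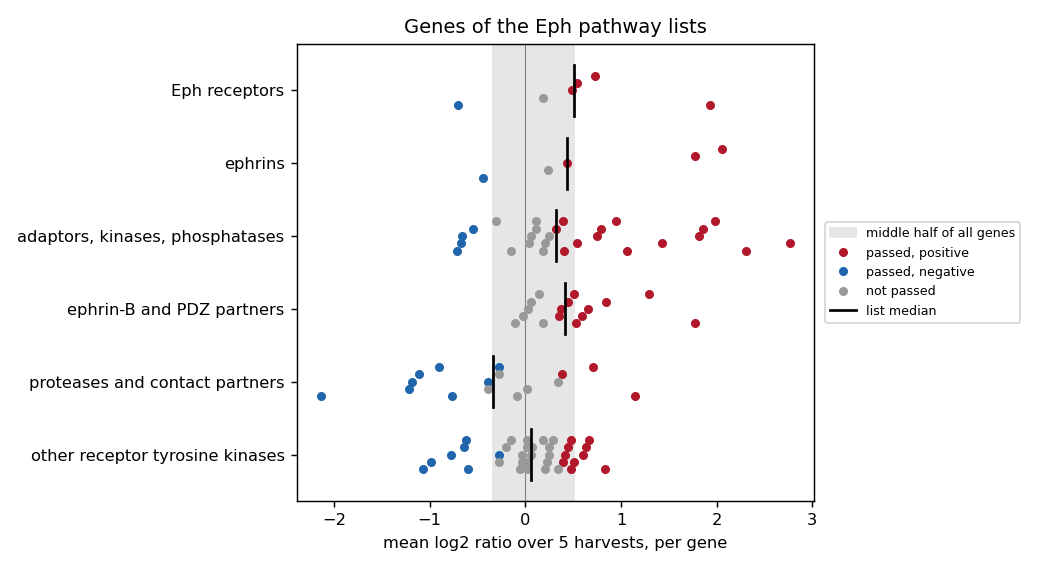
Mean log2 ratio over the 5 harvests (horizontal axis) of each measured gene in 6 lists, coloured by whether it passed, with the list median as a black bar and the range between the quartiles of all genes as a grey band (-0.34 to 0.51). List medians run from 0.51 for Eph receptors to -0.34 for proteases and contact partners.

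Genes with the most similar course were found by the Euclidean distance of log ratios over the 5 harvests, among probes with 1 gene symbol. The nearest to EPHA2 were ETS2, an Ets transcription factor, at a distance of 0.39, USP53 at 0.48 and ZNF217 at 0.48. ETS2 was at 1.74, 2.14, 1.75, 1.00 and 3.64, so it shared the low 1 h and the high 8 h log ratio. The spread of these 2 arrays was 0.53 and 0.87, and by rank EPHA2 was lowest at 30 min. The nearest to EFNA1 were GTF2H1, a subunit of the transcription factor TFIIH, at 0.36, GATA6, a zinc finger transcription factor, at 0.39 and KAZN at 0.39. The nearest to EFNB2 were ANKRD17 at 0.29, ZNF521 at 0.32 and ZNF24 at 0.35.

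Nearer to 0, where many probes lie close together, EFNB1 probe 4505 had CHAF1A at 0.11, TIAL1 at 0.20 and TCAF1 at 0.21. EPHB4 probe 7585, the one of its pair that this rule used, had UBE2A, PLXNB3 and NIPA2, each at 0.13. These distances rest on 5 arrays that share their dye orientation, and describe likeness only.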

How the data were processed

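Two-colour arrays, 6 in all, were analysed as 6 groups of 1 array, by their titles. Per the labels' protocols, the authors averaged spot intensities after background subtraction, divided sample by reference, normalised within each slide on housekeeping genes and discarded ratios of low quality. The authors deposited log2 ratios; which channel is the numerator stays unknown. Column medians were 0.05, 0.08, 0.15, 0.06 and 0.15 at the harvests in time order and 0.01 on the self-self array, so no centring was found. Genome build and software are not given in the sources used here.

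On every array 1 value recurs, at 333 to 534 probes, and was treated as not measured. This left 13151 probes with all 5 harvests. Of 14080 probes, 11304 carry 1 gene symbol, and 11282 of these matched the RefSeq gene table by gene ID. The mean and the time slope, on log2(1 + min / 10) after centring, came from limma 3.58.1 (R 4.3.3) with moderated variances, leaving 3 residual degrees of freedom, and p-values were adjusted by Benjamini-Hochberg. All tests are two-sided, and the fit was tried on artificial data with known answers. Lists used probes averaged per gene. Percentiles, distances (Python 3.11.15) and promoter matches carry no test.

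All measured probes of the genes chosen are named, with all other measured Eph and ephrin genes, up to 4 members of each signalling list with the largest means in size that passed, and the 3 nearest profiles of each gene. Genes, lists and rules were chosen with earlier results of these data known, so no pattern here is independent support. The marker lists were for fibroblasts, B lymphocytes and epithelium.

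Alternatives kept the recurring value, centred arrays, gave them equal spread, left out each harvest, used the order of harvests as time, dropped the slope term, averaged probes per gene, moved the noise limit or compared with the self-self array within the fit. A further list of signalling genes is not reported here.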

Additional observations from a re-analysis of the deposited data

Results flagged for a closer look

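Values of probes that stayed outside the fit, because an entry was not measured, lay above both the self-self range and their own self-self value. EFNB1 probe 4723 was at 1.19 at 8 h, against 0.03 on the self-self array. EPHA5 was at 2.99 at 1 h, the highest value of that array, against -0.30 on the self-self array, and 3 of its 5 harvest entries were not measured. EPHB6 was at 1.06 at 10 min and 0.70 at 30 min, against 0.51 on the self-self array, which itself was above the range. EPHA3 was at -0.32 at 1 h and 0.65 at 10 min, beyond the self-self range on opposite sides. The 1 h value equals the lower limit after rounding. By rank these values stood at percentiles 25.8 and 74.7 of their arrays. The difference was not tested between the 2 harvests. Outliers within a group could not be looked for, as each group has 1 array.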

How the results depend on the processing

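No paired analysis was possible because each group has 1 array. Over the alternatives no mean of the 6 fitted probes of the named genes changed sign, and 58 of 72 values kept their side of the threshold. Leaving out 1 harvest gave 1.92 to 2.30 for EFNA1, 1.58 to 2.18 for EPHA2, 1.49 to 2.0 for EFNB2, 0.28 to 0.54 for EFNB1, -1.11 to -0.94 for EPHB4 probe 8148 and -0.41 to -0.33 for probe 7585. Against the self-self array in the same fit no call held, with 2.08 (EFNA1), 2.11 (EPHA2), 1.74 (EFNB2), 0.47 (EFNB1), -0.91 and -0.33 (EPHB4 probes 8148 and 7585) and adjusted p from 0.167 to 0.513. Its single self-self array gives larger standard errors. With arrays centred on their medians EFNB1 was at 0.33 and not called, and the median of all genes was 0.04 in place of 0.14.

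Of all probes 4602 passed as positive and 3454 as negative. Against the self-self array there were 0 and 2. Per gene 2217 were negative, of fewer features. Leaving out 1 harvest gave 3479 to 4574 positive and 2795 to 3417 negative. Slopes passed for 0 to 574 probes on leaving out 1 harvest, for 1 with centred arrays, 27 at equal spread and 1 per gene; the cause was not tested. Outside the self-self range lay 5155, 8810, 8264, 5970 and 8297 probes in time order. With a limit of 1 log2 unit there were 952, 3628, 2748, 1087 and 3675, and at equal spread 343, 140, 223, 208 and 278. Of 198 list counts 163 stayed within 1.5 times.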
